A study of Mus musculus with 12 samples.

Results

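The 35 genes described here encode the enzymes of fatty acid and triglyceride synthesis and 3 of their regulators. They were taken from a list of symbols that was chosen with earlier results of these data known. All 35 were found among the 55357 gene identifiers of each of the 2 deposited count tables. RNA-seq had been performed on 12 libraries in 4 groups of 3. The liver libraries came from wild-type male C57BL/6J mice, 8 to 9 weeks old, gavaged for 7 days with either 90 mg/kg/d esculetin, a plant coumarin, or its vehicle, 2.5% Tween-80. Per the labels, both groups of mice received chow of low fat content (10% of kcal) on the first 4 days and of high fat content (60% of kcal) on the last 3 days, and the study states that each liver sample pooled 2 mice. The cell libraries came from RAW264.7, a single mouse macrophage line of wild-type genotype, which all received 25 µg/mL oxidized low-density lipoprotein carrying the dye DIL (DIL-oxLDL) for 24 h together with 40 µg/mL esculetin or DMSO. The comparisons ask which of these genes responded to esculetin in the liver, which responded in the lipid-loaded cells, and whether the 2 responses differed.

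Fatty acids are built in the cytosol from acetyl-CoA. Citrate leaves the mitochondrion through Slc25a1, ATP citrate lyase (Acly) cleaves it, acetyl-CoA carboxylase (Acaca, Acacb) makes malonyl-CoA, and fatty acid synthase (Fasn) assembles palmitate with NADPH that malic enzyme (Me1) helps to supply. Palmitate is lengthened by the elongase cycle, receives double bonds from stearoyl-CoA desaturases (Scd) and fatty acid desaturases (Fads), is activated by acyl-CoA synthetases (Acsl) and is joined to glycerol by the Gpat, Agpat, lipin and Dgat enzymes in turn. The liver is a main site of this pathway, which the transcription factors SREBP-1c (Srebf1) and ChREBP (Mlxipl) switch on after feeding, while macrophages use it chiefly to remodel membranes and to store surplus lipid.

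The libraries held 14659876 to 20346460 counts in the liver and 13752842 to 20001959 in the cells. One liver library, control replicate 1, stood apart: on a first principal component with 47.2% of the variance among liver libraries it lay at -33.4, while the other 5 lay between -2.64 and 12.6. It was the highest control for 8 of the 11 members whose esculetin libraries all lay below the controls. Liver counts, the liver median and the values of Scd1, Elovl6, Gpat3 and Mlxipl are therefore also given without it. Values of the other members include it. In the cells the first component held 84.7% and separated the 2 groups. The labelled tissues carried their markers: 10 hepatocyte genes summed to 119000 to 140000 CPM (counts relative to library size, which edgeR adjusted by the trimmed mean of M-values, TMM) in the control livers and to 113000 to 138000 CPM with esculetin, but to at most 1.39 CPM in any cell library. Of 8 macrophage genes, 7 were tested in the cells and 6 were higher with esculetin (edgeR adjusted p under 0.05), against 28.7% of all tested genes. The 8 summed to 2200 to 2430 CPM in the control cells and to 5610 to 8630 CPM with esculetin. Lyz2 alone had 599 to 682 CPM in the controls and 2580 to 4698 CPM with esculetin. The part of these marker changes in the results below was not tested. In such bulk libraries, fewer cells of a type and less RNA per cell cannot be told apart.

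Levels of different genes were compared as CPM per kilobase of exon (FPKM), with the exons of all annotated transcripts of a gene merged. This merged length can exceed that of the transcripts present, so ranks and shares between genes depend on the annotation. In the control livers Scd1, which introduces the double bond of oleate and palmitoleate, stood first at 1319.9 ± 114 FPKM (SD, n = 3). The elongases Elovl3 at 314 ± 57.5 and Elovl2 at 219 ± 28.3 FPKM followed, with library ranges that did not reach the next gene. Fads2 at 173 ± 11.6 and Elovl5 at 171 ± 19.6 FPKM overlapped each other. The lowest liver level belonged to Pnpla3, a lipid droplet enzyme, at 0.110 ± 0.0490 FPKM, while Mogat1, a monoacylglycerol acyltransferase, at 0.878 ± 0.363 FPKM overlapped Gpat3 at 0.959 ± 0.413 FPKM. In the control cells Scd2, the stearoyl-CoA desaturase found outside the liver in most tissues, was first at 474 ± 2.01 FPKM, above Slc25a1 at 72.6 ± 8.88, Me1 at 68.3 ± 1.41, Scd1 at 67.2 ± 2.49 and Fads1 at 62.7 ± 2.82 FPKM, whose ranges overlapped in sequence. In the cells 5 members were at or near 0. Elovl2 had 0 counts in every library, Mlxipl had 1 count in a single esculetin library, and Thrsp, Pnpla3 and Elovl3 had at most 4, 4 and 7 counts in any library. A count of 0 allowed a level of up to 0.146 to 0.219 CPM, depending on the library.

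At several steps the isozyme with the largest share of FPKM differed between the 2 systems. Shares were formed over the members of a family and its other genes in a wider pathway list. Scd1 supplied 99.9% of the Scd FPKM in the control livers, whereas Scd2 supplied 87.3% ± 0.294 (SD) in the control cells. Dgat2, which catalyses the last step of triglyceride synthesis, made up 92.7% ± 0.507 of the Dgat FPKM in liver, and Dgat1 made up 90.1% ± 0.527 in the cells. Among acetyl-CoA carboxylases the liver held 65.7% ± 4.59 Acacb, the mitochondrial form that controls fatty acid oxidation. The cells held 91.2% ± 0.844 Acaca, the cytosolic form. Acaca and Acacb had means of 67.2 and 71.3 CPM in the control livers, over merged exon lengths of 18396 and 10184 bases. Elovl2, Elovl3 and Elovl5 made up 30.6%, 43.7% and 23.9% of the elongase FPKM of the control livers. In the control cells Elovl5 made up 50.1% and Elovl1 38.4%. Each share was formed within a library, so the separate scaling of the liver and cell tables does not enter it. The difference in shares between liver and cells was not tested. Floors cover counting error alone.

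**Figure D1:**
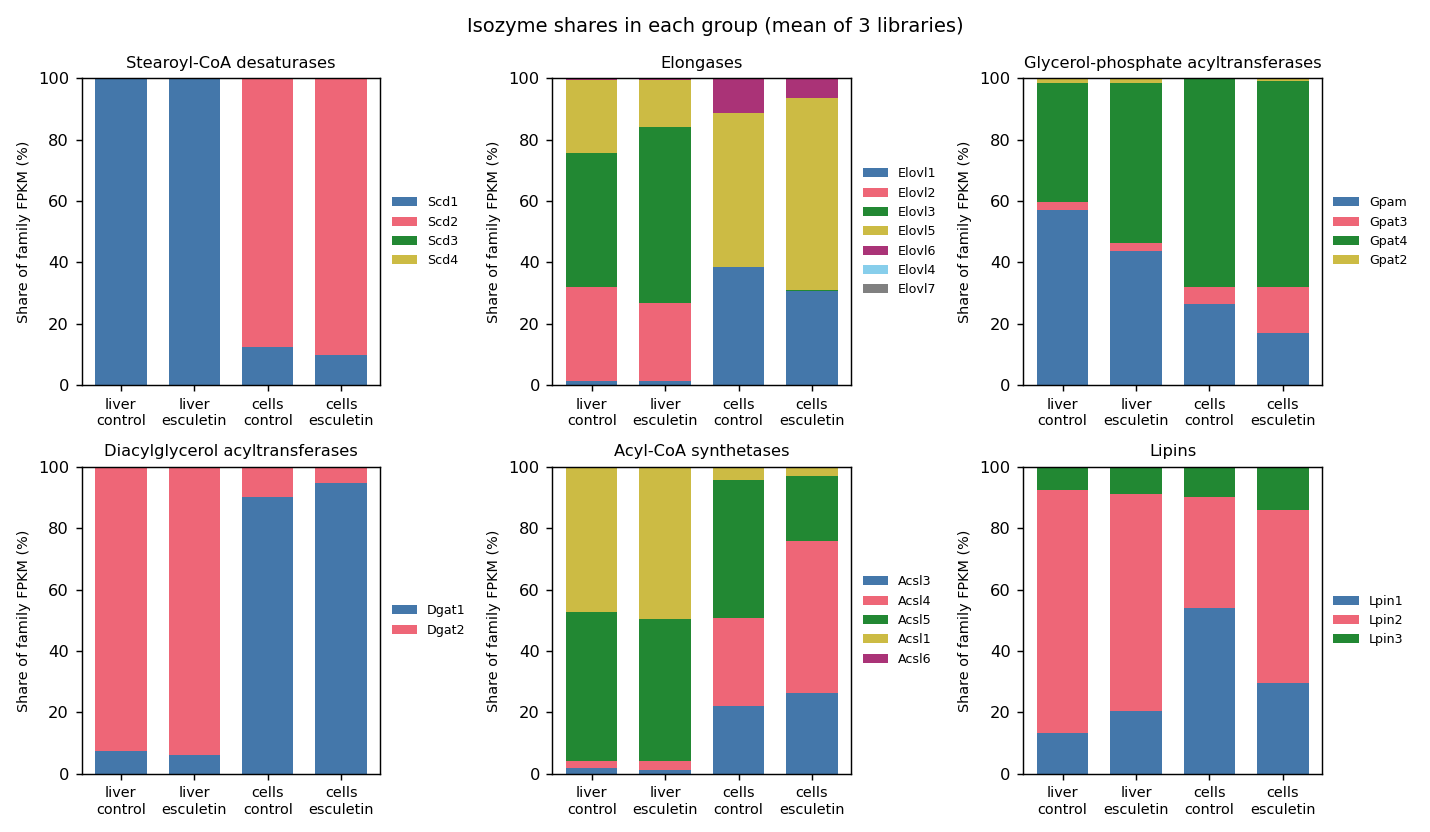
Each panel shows 1 enzyme family, with a stacked bar for each group giving the percent of the family's summed FPKM that each isozyme supplied (mean of 3 libraries). Scd1 filled nearly the whole Scd bar in both liver groups and Scd2 87.3% of it in the control cells. The lipin and acyl-CoA synthetase bars of the cells differed between control and esculetin, with Lpin1 at 54.0% and 29.7%.

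In the liver, none of the 35 members passed an adjusted p of 0.05 (edgeR quasi-likelihood test, Benjamini-Hochberg over 12813 genes), against 0.0859% of all tested genes. At an unadjusted p under 0.05 there were 16 members, against 8.37% of all tested genes, 15 of them with lower and 1 with higher values under esculetin, where 4.98% of all tested genes were below and 3.39% above. The 3 esculetin libraries lay entirely below the 3 control libraries for 11 members, and 7.94% of all genes showed this (14.5% in either direction). They lay entirely above for 1 member, Dgat2, where 6.52% of all genes did. Fold changes were negative for 24 of 35 members, against 53.5% of all tested genes, and their median was -0.14 on the log2 scale, against -0.02 for all genes. DESeq2 called 5 members, against 0.765% of all genes, limma-voom called 1, Scd1, against 0.0859%, and edgeR without a filter on low counts called 10, against 1.52%. The stated criterion of the study, an unadjusted p under 0.05 and a fold change over 1.5 in limma, was met by 6, against 3.89%. Without control replicate 1 the edgeR test called Scd1 alone, against 0.122% of all genes, 13 members had an unadjusted p under 0.05, against 9.07%, and the median was -0.20. Without esculetin replicate 2 it again called Scd1 alone, against 0.113%, 14 members had an unadjusted p under 0.05, against 6.69%, and the median was -0.34. Without esculetin replicate 1 or 3 the count at an unadjusted p under 0.05 was 9, against 5.90% and 4.72%. By role, all 3 fatty acid synthesis genes and all 4 desaturases had a negative fold change at an unadjusted p under 0.05, as did 3 of 7 elongation genes. Of 10 glycerolipid assembly genes, 1 was below and 1 above at that level.

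As a whole the members supplied 18475 ± 766 CPM (SD, n = 3) in the control livers and 12177 ± 1688 CPM with esculetin. Most of this difference lay in Scd1, since the sum without it was 8964 ± 164 and 7689 ± 576 CPM. Scd1 alone accounted for 49.5% to 54.1% of all member counts in the control livers and for 34.0% to 40.9% with esculetin, and the 2 ranges did not overlap.

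**Figure D2:**
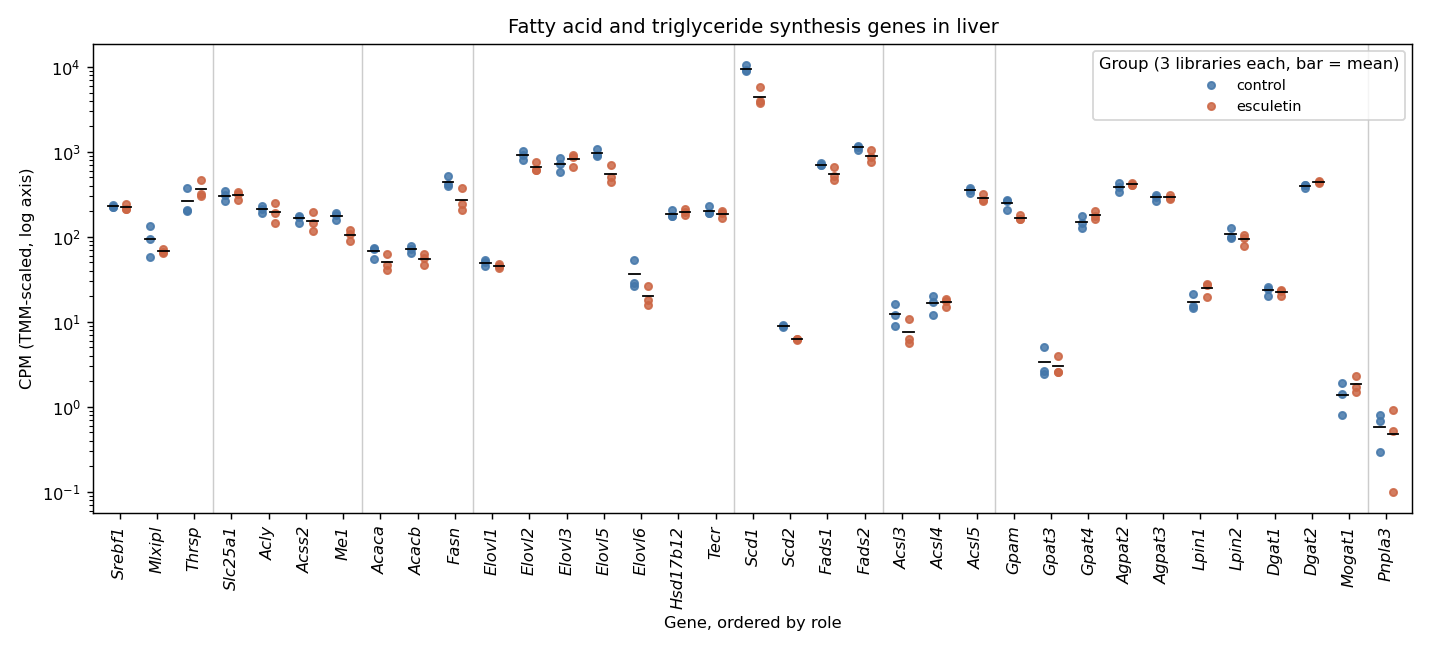
Every liver library is plotted as a point on a log axis of CPM, control in blue and esculetin in orange, for the 35 genes ordered by role, and the bars are means of 3 libraries. The esculetin points of Scd1, Elovl5, Me1, Fasn and Gpam lie below all control points, while those of Srebf1, Slc25a1 and Agpat3 lie among them.

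The desaturases carried the largest liver difference. Scd1 was counted at 10462, 8982 and 9091 CPM in control replicates 1 to 3 and at 3738, 5767 and 3961 CPM in esculetin replicates 1 to 3. The groups were separated by a wide gap, with esculetin replicate 2 nearest to the controls. The log2 fold change was -1.08 ± 0.18 (SE; 95% interval -1.44 to -0.73), a 2.12-fold lower level, and its adjusted p of 0.0527 lay just above the threshold. Without control replicate 1 it was -1.01 with an adjusted p of 0.0392, and without esculetin replicate 2 it was -1.32 with 0.0175, so that Scd1 was called there. Scd2 was far less abundant, at 8.95, 9.07 and 8.67 CPM in the controls and 6.04, 6.29 and 6.33 CPM with esculetin. Its 2 groups were also apart, at -0.52 ± 0.17 on the log2 scale with an adjusted p of 0.420. Reads common to Scd1 and Scd2 may have been assigned to either, and their part in the low Scd2 values was not tested. Fads1, the delta-5 desaturase of polyunsaturated fatty acids, had 697, 731 and 699 CPM against 464, 670.2 and 514 CPM and did not overlap. Fads2, the delta-6 desaturase, had 1044, 1156 and 1189 against 770.4, 1054 and 861 CPM, and here esculetin replicate 2 reached the control range. Both Fads fold changes were of similar size, at -0.37 ± 0.15 and -0.34 ± 0.14.

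Synthesis of palmitate gave smaller differences in the same direction. Fasn had 514, 401 and 421 CPM in the control livers and 205, 373 and 244 CPM in the esculetin livers. No value overlapped, and the log2 fold change of -0.70 ± 0.20 had an adjusted p of 0.310. Acaca had 74.6, 71.4 and 55.6 against 41.0, 63.0 and 46.7 CPM, with esculetin replicate 2 inside the control range. Its fold change was -0.42 ± 0.17. Acacb, which had 64.0, 78.7 and 71.3 against 46.5, 62.8 and 56.8 CPM, was separated by a small gap at -0.37 ± 0.14. Neither carboxylase had an adjusted p below 0.510.

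The promoters of Acaca, Acss2 and Scd1 are shown because SREBP-1c, a product of Srebf1, is known to act through sterol regulatory elements (SRE) near the start sites of lipogenic genes. The sequences were read from GRCm39 from 250 bases before to 50 bases after the start of the GENCODE canonical transcript, and are printed 5′ to 3′ on the strand of the gene. Capitals mark the SRE, searched as TCACNCCAC, and the CCAAT box, searched as CCAAT, both on either strand. The Acaca promoter (chr11:84063698-84063997, plus strand) had an SRE with its first base at -98, and that of Acss2 (chr2:155359618-155359917, plus strand) had 2, at -239 and -186. In the promoter of Scd1 (chr19:44396291-44396590, minus strand) no letters matched the SRE, and CCAAT boxes stood at -67 and -24.
Acaca: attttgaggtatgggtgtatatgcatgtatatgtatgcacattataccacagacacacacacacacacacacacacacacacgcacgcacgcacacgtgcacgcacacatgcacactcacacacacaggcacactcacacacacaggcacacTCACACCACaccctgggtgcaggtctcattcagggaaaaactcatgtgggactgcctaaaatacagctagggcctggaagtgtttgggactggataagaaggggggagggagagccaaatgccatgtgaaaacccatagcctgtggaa
Acss2: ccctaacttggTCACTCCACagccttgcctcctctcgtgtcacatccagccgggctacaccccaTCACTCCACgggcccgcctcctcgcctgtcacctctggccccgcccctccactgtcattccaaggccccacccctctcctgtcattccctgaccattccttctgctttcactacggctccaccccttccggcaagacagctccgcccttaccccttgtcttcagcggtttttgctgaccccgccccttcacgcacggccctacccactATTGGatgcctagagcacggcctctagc
Scd1: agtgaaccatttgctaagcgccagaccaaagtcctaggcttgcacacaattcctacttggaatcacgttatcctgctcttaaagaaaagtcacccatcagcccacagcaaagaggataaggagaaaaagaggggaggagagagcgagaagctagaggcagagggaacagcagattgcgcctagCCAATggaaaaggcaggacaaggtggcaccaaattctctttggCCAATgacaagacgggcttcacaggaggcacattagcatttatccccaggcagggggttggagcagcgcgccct
Of 34 member promoters searched, 3 held the SRE, the third being that of Mlxipl, against 1.34% of 21626 promoters of protein-coding genes. The CCAAT box stood in 16 member promoters and in 39.9% of all. The E-box CACGTG, which is part of the element bound by ChREBP, stood in 6 and in 7.85%, and the GC box GGGCGG in 17 and in 42.6%. A match describes these letters in this window and is not a measured site.

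The genes that supply acetyl-CoA and NADPH divided in the liver. Me1, which yields NADPH from malate, had 190.1, 183 and 159 CPM in the controls and 89.4, 121 and 108 CPM with esculetin. The groups lay well apart, at -0.74 ± 0.14 on the log2 scale with an adjusted p of 0.0839. Slc25a1, the citrate carrier, had 265, 312 and 343 against 271, 336 and 318 CPM. Acly had 212, 228 and 191 against 145, 252 and 189 CPM. Acss2, which makes acetyl-CoA from acetate, had 145, 178 and 173 against 117, 194 and 147 CPM. The groups of these 3 genes overlapped, and their fold changes of 0.01, -0.11 and -0.12 were smaller than their standard errors.

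Elongation showed the same unevenness. Elovl5, which lengthens polyunsaturated fatty acids, had 1096, 926 and 886 CPM in the control livers and 439.6, 707 and 507 CPM in the esculetin livers. Its groups did not overlap, at -0.81 ± 0.17 with an adjusted p of 0.165. Elovl6, which takes palmitate to stearate, had 53.4, 26.3 and 28.4 against 18.2, 26.2 and 15.7 CPM. These groups nearly met at control replicate 2 and esculetin replicate 2, and the fold change of -0.84 ± 0.26 became -0.44 without control replicate 1. Elovl2, specific for long polyunsaturated chains, had 1036, 924 and 798 against 612, 770.0 and 616 CPM and was separated by a small gap, at -0.47 ± 0.15. Elovl3 overlapped, with 577, 837 and 721 against 925, 669 and 867 CPM, and so did Elovl1, with 45.3, 53.6 and 50.2 against 45.0, 43.1 and 47.3 CPM. The reductases that serve all elongases overlapped between groups. Hsd17b12 had 176, 209 and 177 against 214, 183 and 195 CPM, and Tecr had 193, 190.4 and 228 against 167, 204 and 189.9 CPM.

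Among the acyl-CoA synthetases, Acsl5 had 376, 356 and 328 CPM in the controls and 271, 318 and 263 CPM with esculetin, without overlap, at -0.32 ± 0.12. Acsl3, a form of the lipid droplet surface, had 16.3, 11.9 and 9.02 against 6.26, 10.8 and 5.56 CPM. Esculetin replicate 2 again lay among the controls, and the fold change was -0.72 ± 0.27. Acsl4, which prefers arachidonate, had 20.2, 17.2 and 12.0 against 17.4, 18.6 and 14.7 CPM and overlapped.

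Of the enzymes that assemble triglyceride, the first, Gpam, a mitochondrial glycerol-phosphate acyltransferase, had 271, 262 and 208 CPM in the control livers and 162, 181 and 161 CPM in the esculetin livers. No values overlapped, and the log2 fold change was -0.56 ± 0.13 with an adjusted p of 0.210. Its relatives of the endoplasmic reticulum did not follow: Gpat4 had 126, 178 and 145 against 202, 162 and 178 CPM and Gpat3 5.03, 2.61 and 2.44 against 3.97, 2.59 and 2.59 CPM. Gpam accordingly supplied 57.2% ± 4.60 of the family's FPKM in the controls and 43.6% ± 4.00 with esculetin. The log2 fold change of Gpat3, -0.13 ± 0.32 with all libraries, was 0.28 without control replicate 1. Agpat2 and Agpat3, which add the next acyl chain, overlapped between groups. Agpat2 had 341, 389 and 431 against 434, 404 and 412 CPM, and Agpat3 had 266, 312 and 298 against 280.5, 290.4 and 309 CPM. Lpin1, a phosphatidate phosphatase that also acts in the nucleus, was the 1 member above the controls at an unadjusted p under 0.05. It had 14.4, 21.3 and 15.1 against 19.5, 27.8 and 27.5 CPM, at 0.55 ± 0.19 with an adjusted p of 0.458, although the groups overlapped. Lpin2, the major lipin of liver here, had 97.5, 126 and 99.8 against 96.4, 106 and 78.1 CPM. Dgat2 had 373, 407 and 412 against 430.4, 451 and 444 CPM, and this gap without overlap amounted to 0.15 ± 0.11. Dgat1, Mogat1 and Pnpla3 overlapped, with means of at most 23.6 CPM and adjusted p-values of at least 0.781.

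The regulators were level or scattered. Srebf1, counted over all its transcripts, had 238, 227 and 224 CPM in the control livers and 214, 243 and 215 CPM in the esculetin livers, with a log2 fold change of -0.04 ± 0.11 and a 95% interval of -0.26 to 0.19. Thrsp, a small protein that accompanies lipogenesis, had 199, 209 and 381 against 469.9, 300.1 and 318 CPM, and Mlxipl had means of 95.3 ± 38.9 and 67.3 ± 3.66 CPM. Both overlapped, and Mlxipl went from -0.50 to -0.16 without control replicate 1.

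Markers of fat varied among the liver libraries. Esculetin replicate 2 had the highest value of its group in 10 of the 11 members whose esculetin libraries all lay below the controls, and it had the lowest adipocyte marker values of its group. Adipoq, the adipocyte hormone, was at 1.36, 0.260 and 3.75 CPM in esculetin replicates 1 to 3, and at 0, 0.246 and 0.175 CPM in the controls. The 7 adipocyte markers summed to 20.2 to 50.5 CPM in the controls and to 23.0 to 65.3 CPM with esculetin, none of the 3 tested was called, and Lep was at or near 0 in every library. The part of this in the results was not tested.

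The cells gave calls for most of the pathway. Of the 30 members that passed the filter on low counts, 21 passed the same test at an adjusted p of 0.05, 6 higher and 15 lower with esculetin. That is to be read against the whole table, in which 57.7% of 13277 genes were called, 28.7% higher and 29.0% lower. The groups did not overlap for 16 members on the lower side, against 33.1% of all genes, and for 7 on the higher side, against 31.0% (64.1% in either direction). The median fold change of the members was -0.29 on the log2 scale, against -0.01 for all tested genes. All 3 fatty acid synthesis genes fell, as did 2 of 4 desaturases, 3 of 5 tested elongation genes and 2 of 4 genes of acetyl-CoA and NADPH supply. Acyl-CoA synthetases and glycerolipid assembly were mixed, with 2 higher and 1 lower of 3, and 3 higher and 3 lower of 10. The members together supplied 8400 ± 146 CPM (SD, n = 3) in the control cells and 6024 ± 181 CPM with esculetin.

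**Figure D3:**
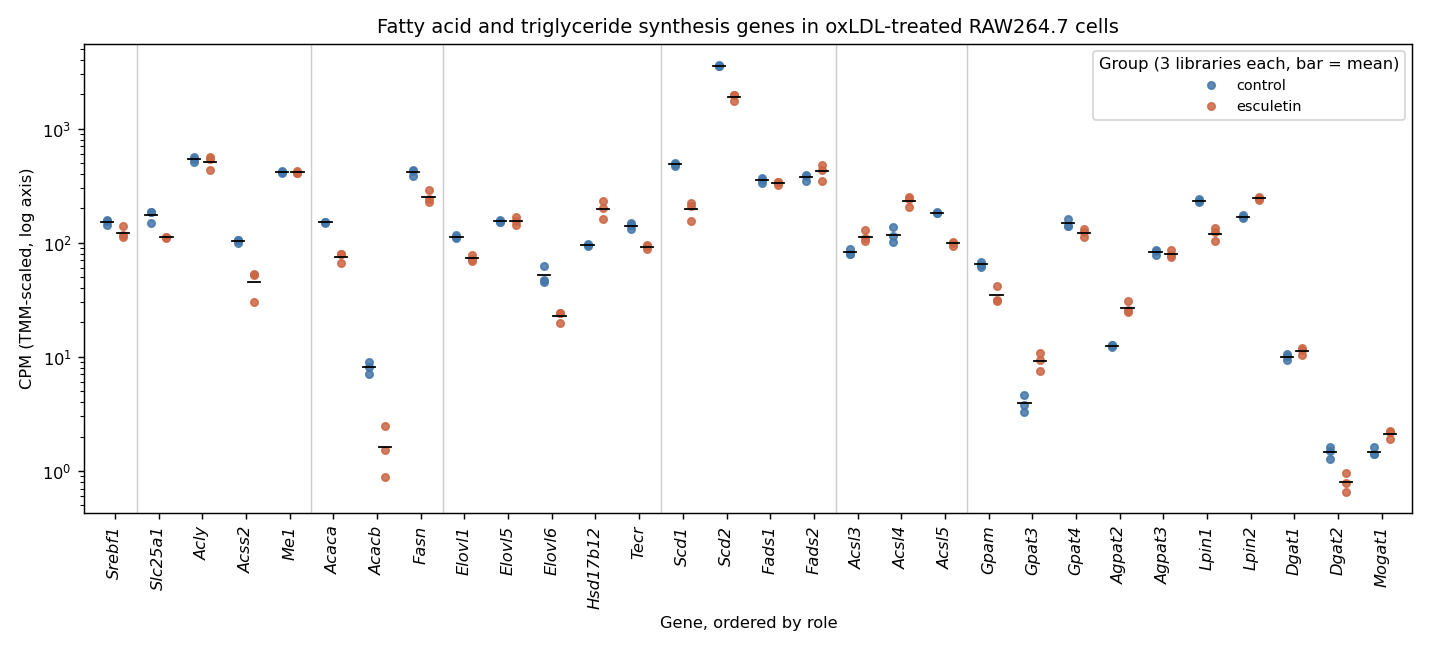
Every cell library is plotted as a point on a log axis of CPM, control in blue and esculetin in orange, for the 30 tested genes ordered by role, and the bars are means of 3 libraries. Scd2 is the highest gene in both groups, Acacb shows the widest gap downwards, and Hsd17b12, Acsl4, Gpat3 and Agpat2 show gaps upwards.

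Both Scd isozymes fell. Scd2 had 3559, 3582 and 3554 CPM in the control cells and 1981, 1964 and 1755 CPM with esculetin. The controls were nearly equal, and every esculetin library was far below them, at -0.91 ± 0.09 on the log2 scale (edgeR adjusted p 1.21e-05). Scd1 had 465, 501 and 486 against 223, 211 and 154 CPM, at -1.31 ± 0.13 (adjusted p 7.05e-06), a 2.47-fold fall. Since Scd1 and Scd2 are close relatives, reads common to both may have been assigned to either or dropped. The Fads genes overlapped between groups. Fads1 had 334, 355 and 365 against 339, 342 and 321 CPM, and Fads2 had 347, 392 and 386 against 350.2, 436 and 480.2 CPM, at -0.07 ± 0.08 and 0.17 ± 0.11.

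In palmitate synthesis, Acaca fell from 153, 148 and 153 CPM in the controls to 66.0, 79.5 and 79.8 CPM with esculetin. The log2 fold change was -1.01 ± 0.09 (adjusted p 5.03e-06), a 2.01-fold fall. Acacb, low in this line, fell from 8.08, 7.09 and 9.04 to 1.53, 2.45 and 0.891 CPM. At -2.33 ± 0.29 (adjusted p 5.06e-05) this was the largest fall among the 30 tested members. Fasn fell from 381, 425 and 431 to 226, 240.4 and 289 CPM, at -0.71 ± 0.10 (adjusted p 0.000141). None of the 3 genes overlapped between groups, and esculetin replicate 3 stayed closest to the controls for Fasn and farthest from them for Acacb. The promoter of Acaca is printed above, and a link between its SRE match and this fall was not tested.

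Supply of acetyl-CoA was uneven in the cells. Acss2 fell from 98.7, 106 and 105 to 52.8, 51.6 and 30.4 CPM, with esculetin replicate 3 lowest, at -1.20 ± 0.17 (adjusted p 0.000108). Its promoter held 2 of the SRE matches, and their part in the fall was not tested. Slc25a1 fell from 149.9, 187 and 187 to 109, 112 and 112 CPM, at -0.65 ± 0.10 (adjusted p 0.000175). Next to these, the enzymes that use the exported citrate and malate were not called. Acly had 509.9, 562 and 545 against 438, 563 and 539 CPM, and its 95% interval was -0.27 to 0.13. Me1 had 410.3, 427 and 417 against 407, 423 and 408 CPM, with an interval of -0.17 to 0.13.

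Genes of the elongation cycle took different directions in the cells. Elovl6 fell from 62.0, 45.6 and 47.4 to 24.0, 19.6 and 24.4 CPM, at -1.19 ± 0.14 (adjusted p 3.21e-05). Elovl1, which makes very long saturated chains, fell from 109.6, 113 and 117 to 69.1, 71.6 and 78.5 CPM, at -0.63 ± 0.08 (adjusted p 7.71e-05). Tecr, the reductase of the last step, fell from 131, 142 and 148 to 88.5, 93.3 and 95.02 CPM, at -0.60 ± 0.08. Hsd17b12, the ketoacyl reductase of the same cycle, instead rose from 94.8, 93.9 and 96.5 to 161, 199.99 and 234 CPM, at 1.06 ± 0.12 (adjusted p 2.20e-05). These 4 genes had groups without overlap. Elovl5 was not called, with 153, 157 and 153 against 144, 168 and 156 CPM and a 95% interval of -0.15 to 0.18, and its share of the elongase FPKM was 50.1% ± 1.07 in the controls and 62.6% ± 2.45 with esculetin.

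Among the acyl-CoA synthetases, Acsl4 and Acsl5 went opposite ways. Acsl5 fell from 182, 186 and 182 to 100.0, 102 and 94.3 CPM, at -0.89 ± 0.08 (adjusted p 3.70e-06). Acsl4 rose from 137, 102 and 113 to 206, 241 and 249.6 CPM, at 0.98 ± 0.12 (adjusted p 3.21e-05), and Acsl3 rose from 87.8, 79.7 and 79.1 to 109, 128 and 103 CPM, at 0.46 ± 0.10 (adjusted p 0.00204). In the family's FPKM, which included Acsl1 and Acsl6 of the wider list, Acsl5 supplied 45.1% ± 2.79 in the controls and 21.2% ± 1.47 with esculetin, while Acsl4 supplied 28.7% ± 2.84 and 49.6% ± 3.16. The order of Acsl4 and Acsl5 thus differed between control and treated cells. In the liver Acsl5 and Acsl1 made up nearly the whole of the family's FPKM. Their shares were 48.8% ± 2.90 and 47.1% ± 2.76 in the controls and 46.5% ± 3.37 and 49.4% ± 3.93 with esculetin. These shares are per base of merged exon, which measured 5946 bases for Acsl5 and 16262 for Acsl1. Near-equal shares here therefore do not mean near-equal counts.

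In glycerolipid assembly, isozymes of the first step and lipins moved in opposite directions. At the first step, Gpam fell from 68.3, 63.8 and 61.2 to 41.7, 31.2 and 30.6 CPM, at -0.90 ± 0.12 (adjusted p 9.01e-05), and Gpat3 rose from 3.26, 3.81 and 4.62 to 7.53, 9.33 and 10.9 CPM, at 1.25 ± 0.20 (adjusted p 0.000302). Gpat4, the most abundant of the 3, had 140.0, 161 and 141 against 112, 122.9 and 132 CPM. Its fall of -0.27 ± 0.09 (adjusted p 0.0287) was lost in 4 of 6 fits that each left out 1 library, those without control replicate 2 or 3 or esculetin replicate 1 or 2, with adjusted p-values up to 0.143. At the second step Agpat2 rose from 12.7, 12.1 and 12.7 to 24.7, 25.5 and 30.6 CPM, at 1.11 ± 0.12 (adjusted p 1.96e-05), and Agpat3 was not called, with 78.6, 85.2 and 86.5 against 74.2, 77.7 and 86.0 CPM.

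At the phosphatidate step Lpin1 fell from 228, 241 and 232 to 134, 124 and 103 CPM, at -0.96 ± 0.10 (adjusted p 1.43e-05), and Lpin2 rose from 174, 165 and 168 to 248, 251 and 236 CPM, at 0.54 ± 0.08 (adjusted p 0.000119). Both pairs of groups were clear of each other. Of the FPKM of the lipins, Lpin3 included, Lpin1 supplied 54.0% ± 1.15 in the controls and 29.7% ± 2.49 with esculetin. The last step was low in this line. Dgat2 had 1.501, 1.61 and 1.26 against 0.657, 0.953 and 0.780 CPM, without overlap but from 9 to 30 counts a library, at -0.86 ± 0.34 with an adjusted p of 0.05005 that lay just above the threshold. It was called with scaling by library size only, at an adjusted p of 0.0362, and with a filter at 1 CPM, at 0.0461. Dgat1 and Mogat1 had means of at most 11.2 CPM, fold changes of 0.17 and 0.52, and adjusted p-values of 0.305 and 0.135.

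Of the regulators, Srebf1 alone passed the filter in the cells. It fell from 144, 155 and 157 to 111, 117 and 139 CPM, a small change of -0.31 ± 0.10 (adjusted p 0.0186). This call was lost in the same 4 fits that lost Gpat4, with adjusted p-values of 0.0511 to 0.0880. Hepatocyte and adipocyte markers were low in the cells. No count was found in any library for 5 of 10 hepatocyte genes, and the 7 adipocyte markers summed to at most 3.16 CPM. Of the 2 adipocyte markers tested, 1 was called higher and 1 lower with esculetin, against 28.7% and 29.0% of all tested genes.

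The response of the 2 systems was then compared directly, as the log2 fold change in the cells minus that in the liver in 1 model of all 12 libraries. The difference passed an adjusted p of 0.05 for 18 of the 35 members, 8 above and 10 below 0, against 27.1% of 15709 tested genes, 13.4% above and 13.7% below. All 18 were among the 30 members tested in both tables. Mlxipl, Thrsp, Elovl2, Elovl3 and Pnpla3 entered the model through their liver counts. At or near 0 in the cells, their differences were poorly measured, with an SE of 844 for Elovl2. The 15709 genes also include genes too low for a test in 1 of the tables, so 27.1% is not a share of genes tested in both. Dose, vehicle, time and lipid exposure differed between the experiments, so the difference cannot be assigned to the cell type. Of the 30 members tested in both tables, 15 had negative and 4 positive fold changes in both, while 11 had opposite signs.

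Lpin1 showed one of the clearest contrasts, with a log2 fold change of 0.55 in liver but -0.96 in RAW264.7 (difference -1.55 ± 0.22, SE; adjusted p 0.000117). Its partner Lpin2 differed the other way, at 0.70 ± 0.17 (adjusted p 0.00628). Dgat2 differed by -1.05 ± 0.24 (adjusted p 0.00362) and Agpat2 by 0.96 ± 0.17 (adjusted p 0.000501). Gpat3 and Gpat4 differed by 1.32 and -0.58. Among the synthetases, Acsl3 stood at -0.72 in liver and at 0.46 in RAW264.7 (difference 1.14 ± 0.30), Acsl4 differed by 0.90 and Acsl5 by -0.62. In this group of 9 assembly and activation genes the differences took both signs.

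In synthesis and elongation the cells lay below the liver for Acacb, at -2.01 ± 0.30 (adjusted p 0.000137), Acss2, at -1.12 ± 0.27 (adjusted p 0.00556), Slc25a1, at -0.70, Acaca, at -0.63, Elovl1, at -0.53, and Tecr, at -0.51. They lay above it for Hsd17b12, at 0.94 ± 0.18 (adjusted p 0.000896), Elovl5, at 0.79 ± 0.21 (adjusted p 0.0120), and Me1, at 0.68 ± 0.16 (adjusted p 0.00534). Elovl5 and Me1, below their controls in every esculetin liver, were the members whose fold changes in the cells lay nearest to 0. For Scd1 and Fasn the difference was not called: Scd1 was -1.08 and -1.31 (difference -0.26 ± 0.26, adjusted p 0.503), and Fasn was -0.70 and -0.71 (difference -0.05 ± 0.25, adjusted p 0.983). Over the 12 fits that each left out 1 library, the call was lost in 8 for Acaca, 2 for Elovl1 (without liver esculetin replicate 1 or 3), 5 for Tecr, 6 for Gpat3 and 7 for Gpat4, with adjusted p-values of at most 0.171.

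**Figure D4:**
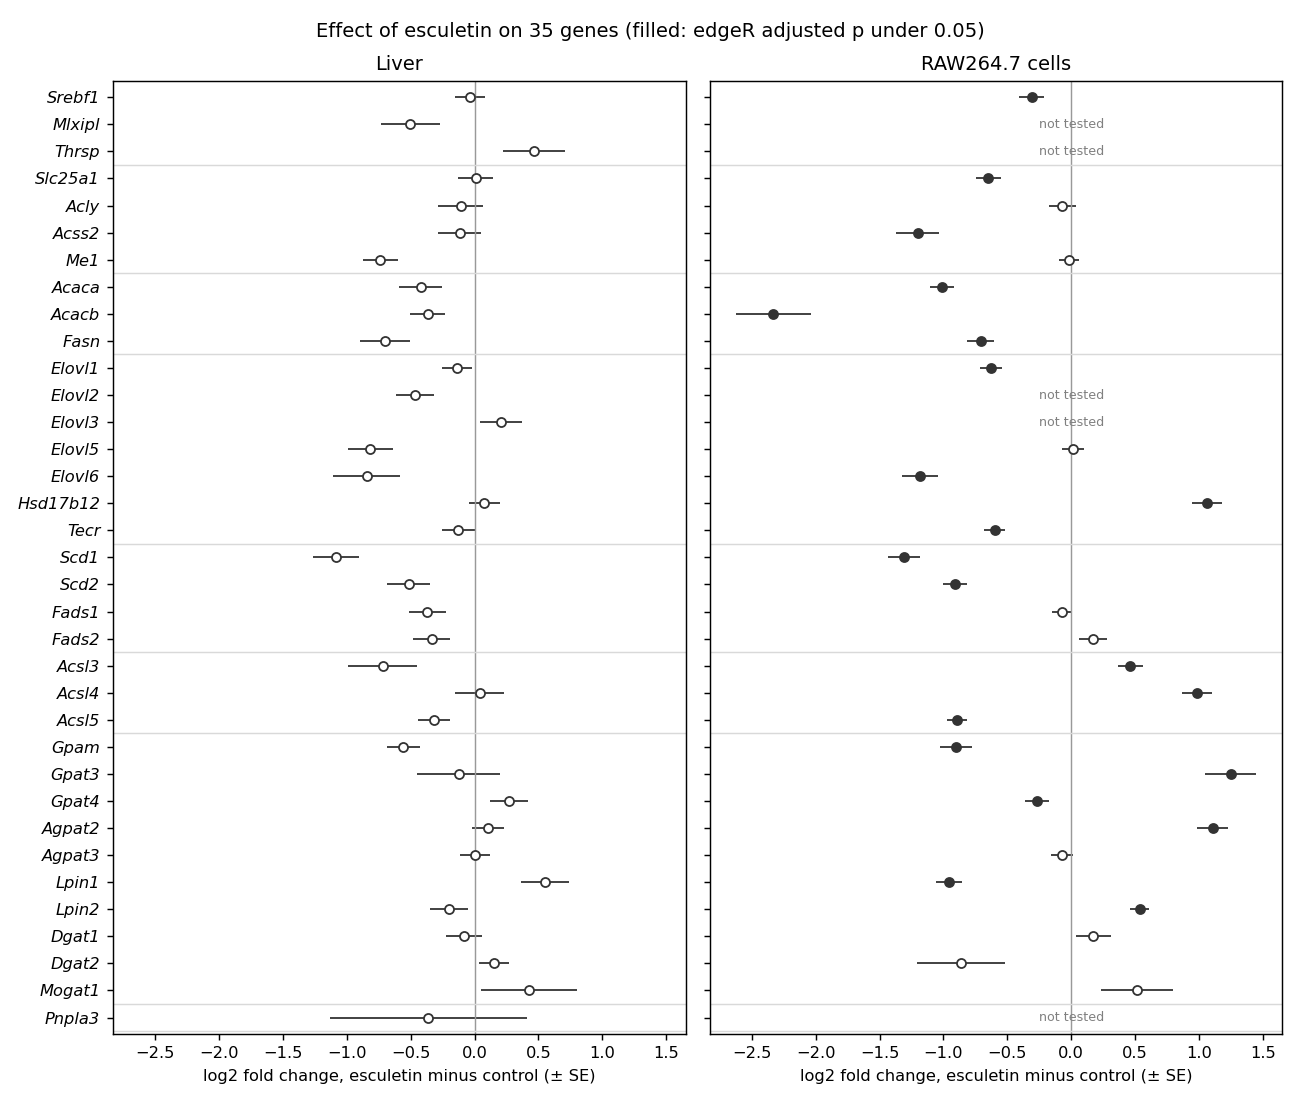
Points give the log2 fold change of esculetin minus control for each gene, with bars of 1 SE, in the liver on the left and in the RAW264.7 cells on the right, and a filled point marks an edgeR adjusted p under 0.05. No liver point is filled and 21 cell points are, with Acacb at -2.33 farthest to the left and Gpat3 at 1.25 farthest to the right. The 5 genes without a point in the cells were not tested there.

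A wider list of 63 other genes of the pathway put these values in context. In the liver none of 57 tested genes was called and the median fold change was -0.04. An unadjusted p under 0.05 was found for 4 of them, a lower share than the 8.37% of all tested genes. Those 4 were Insig1, which holds SREBP in the endoplasmic reticulum, at -0.50, Ppargc1b, a coactivator of SREBP, at -0.87, Fads3 at -0.40 and Mdh1, the cytosolic malate dehydrogenase, at 0.33. In the cells 39 of 52 tested genes were called, 21 higher and 18 lower, or 75.0% against 57.7% of all genes, with a median of 0.14.

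The largest falls in the cells were those of Ppargc1b, from 17.9, 17.998 and 21.7 to 8.11, 5.72 and 7.07 CPM at -1.46 ± 0.16, Mdh1 at -1.04 ± 0.08, Usf2, an E-box factor of lipogenic genes, at -1.03 ± 0.08, Mid1ip1, a protein that polymerises acetyl-CoA carboxylase, at -0.96 ± 0.10, and Cs, citrate synthase, at -0.93 ± 0.08. Rises were led by Scap, the escort of SREBP, from 27.2, 26.6 and 31.9 to 57.4, 67.1 and 68.0 CPM at 1.17 ± 0.11, Erlin2, which binds Insig and Scap, at 1.06 ± 0.10, Prkab2, a subunit of AMP-activated kinase, at 1.01 ± 0.13, Pgd, a source of NADPH, at 0.94 ± 0.18, and Mbtps1, the first protease that cuts SREBP, at 0.84 ± 0.11. Each of these 10 genes had groups that did not overlap. Of the 16 tested genes that control SREBP, LXR and ChREBP, 9 rose and 5 fell, against 28.7% and 29.0% of all tested genes. Among the 5 was Srebf2, which encodes an SREBP, at -0.93 ± 0.08.

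Counting limits apply to single members. By the annotation 22 of the 35 share exonic bases with another gene, 8 of them over more than 10% of their exons, and it is not stated whether reads were counted by strand. Dgat1 shares 54.6% with Hsf1, Acsl5 37.3% with Zdhhc6 (0.28 in the cells, where Acsl5 fell), Me1 35.04% with Rwdd2a, Gpat3 30.1% with a long noncoding RNA and Agpat2 24.2% with Egfl7 (-0.30 in the cells, where Agpat2 rose). Acsl3 shares 15.4% with Utp14b on the same strand, and Utp14b rose by 1.36 in the cells.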

How the data were processed

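The authors prepared libraries with the NEBNext Ultra RNA kit, sequenced paired ends, used HISAT2 2.2.1 to map reads to GRCm39 and featureCounts to count them. The deposited values are raw counts per gene, in separate tables of liver and cells. Strandedness, the treatment of reads with several matches and the annotation release are not given in the sources used here. Symbols, exon lengths and start sites came from a GENCODE annotation of GRCm39, which matched 54749 of 55357 identifiers and all 35 members. The promoter of 1 member is not reported here.

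The quasi-likelihood test of edgeR 4.0.16 (R 4.3.3, filterByExpr, TMM factors, two-sided) was run on each whole table, with Benjamini-Hochberg adjustment across its tested genes. Calls required an adjusted p under 0.05. The SE of a log2 fold change was derived from its F statistic, and the 95% interval was 1.96 SE on either side. The difference between cells and liver was tested in a model with 4 group means. CPM used TMM factors, FPKM divided them by the merged exon length of all annotated transcripts, and errors are SD over 3 libraries. Floors are 3 counts. The test code was checked on simulated data. Nothing in the labels says that the 3 cell libraries of a group were separate cultures, so that p-values measure the spread between these libraries, which may be technical.

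The members, the pathway list, the marker lists and the tests were chosen with earlier results of these data known. Values per library are given for members that were called in either table, averaged at least 100 CPM in a table or did not overlap in the liver, and the others are given by range. Of the pathway list, at most 5 called genes in each direction with a mean of at least 5 CPM are named. The 4 liver genes of that list at an unadjusted p under 0.05 were named after their values were seen. So were Srebf2 in the cells and the neighbours of members with shared exons. Alternatives were DESeq2 1.42.0, limma-voom from limma 3.58.1, RLE, upper quartile or no scaling factors, no filter and a filter at 1 CPM in 3 libraries, an adjusted p under 0.01, the study's stated criterion of an unadjusted p under 0.05 and a fold change over 1.5, a block for the replicate number, and leaving out each library.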

Additional observations from a re-analysis of the deposited data

Results flagged for a closer look

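For 18 members, all tested in both tables, the effect of esculetin in the cells differed from that in the liver. This used a test of the difference itself (edgeR, adjusted p under 0.05, against 27.1% of all genes in the joint model). The cells lay lower for Acacb, by -2.01 on the log2 scale, Lpin1, by -1.55, Acss2, by -1.12, Dgat2, by -1.05, Slc25a1, by -0.70, Acaca, by -0.63, Acsl5, by -0.62, Gpat4, by -0.58, Elovl1, by -0.53, and Tecr, by -0.51. They lay higher for Gpat3, by 1.32, Acsl3, by 1.14, Agpat2, by 0.96, Hsd17b12, by 0.94, Acsl4, by 0.90, Elovl5, by 0.79, Lpin2, by 0.70, and Me1, by 0.68. Dose, vehicle, duration and lipid exposure were confounded with the tissue and cannot be told apart from it.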

How the results depend on the processing

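The liver count depended on the processing. Against 0 members called, there were 10 without a filter on low counts, 5 with DESeq2, 1 with limma-voom and 6 by the stated criterion, and leaving out single libraries gave 0 to 2. The 2 were Me1 and Gpam, without control replicate 3, against 0.238% of all genes, and the 1 without control replicate 1 or esculetin replicate 2 was Scd1. Without esculetin replicate 2 the liver median went from -0.14 to -0.34. RLE, upper quartile, library size only, a filter at 1 CPM and an adjusted p under 0.01 gave 0. Every member call came out on the lower side except 1 without a filter. The causes were not tested.

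The labels do not say whether the replicate numbers pair the samples. Deviations of same-numbered libraries correlated at 0.17, -0.01 and 0.14 in the liver and at 0.22, -0.04 and 0.15 in the cells. Those of other-numbered libraries correlated at -0.20 to 0.14 in the liver and at -0.25 to 0.17 in the cells. With so few libraries these values cannot decide whether the samples were paired. With a replicate block 4 liver members were called, namely Scd1, Me1, Elovl5 and Fasn, against 0.960% of all genes. The block left 21 calls in the cells and 18 for the difference.

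In the cells the count of 21 ranged from 18 to 22 over all alternatives, and from 19 to 21 when 1 library was left out. The difference was called for 12 to 20 members, and for 13 to 19 when 1 library was left out. Of the members, 18 of 35 in the liver, 23 of 30 in the cells and 16 of 30 for the difference kept their direction and their side of the threshold in every alternative.

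None of the fold changes that turned direction was called. With library size only, Slc25a1, Acsl4 and Agpat3 were -0.049, -0.040 and -0.056 in the liver, and Elovl5 was -0.052 in the cells. With a filter at 1 CPM, Slc25a1 was -0.0072 and Agpat3 -0.010 in the liver, and without a filter Agpat3 was -0.00024 there and Elovl5 -0.031 in the cells. The difference for Acly was 0.013 with RLE and with DESeq2, 0.035 with upper quartile, 0.039 with library size only, 0.00044 with the 1 CPM filter, 0.029 with limma-voom and 0.022 with the replicate block, and that for Mogat1 was -0.034 with limma-voom.

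When 1 library was left out, the liver values ran from -0.084 to 0.082 for Slc25a1, -0.34 to 0.055 for Acly, -0.34 to 0.032 for Acss2, -0.16 to 0.21 for Acsl4, -0.39 to 0.28 for Gpat3, -0.054 to 0.055 for Agpat3 and -1.26 to 0.26 for Pnpla3. In the cells they ran from -0.14 to 0.033 for Acly, -0.038 to 0.0022 for Me1 and -0.044 to 0.068 for Elovl5. The difference ran from -0.11 to 0.28 for Acly, -0.16 to 0.29 for Fasn, -0.38 to 0.011 for Scd1, -0.18 to 0.0024 for Agpat3 and -0.22 to 0.39 for Mogat1. Depth limited the members with few counts, such as Dgat2, Mogat1 and Pnpla3 in the cells.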

Other observations

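Among the 3 esculetin livers, replicate 1 had the lowest value of the group in 20 of the 35 members, replicate 2 the highest in 24, and replicate 3 took neither place in most. Among the control livers, replicate 1 had the highest value in 14 members and the lowest in 16.

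Zdhhc6, which lies opposite Acsl5, was at 62.5 CPM in the control cells and 75.9 CPM with esculetin, while Acsl5 was at 184 ± 2.49 and 98.8 ± 4.04 CPM (SD, n = 3). Egfl7, opposite Agpat2, was at 9.96 and 8.09 CPM, while Agpat2 was at 12.5 ± 0.329 and 26.9 ± 3.20 CPM. Hsf1, opposite Dgat1, was at 44.9 and 37.8 CPM, while Dgat1 was at 10.0 ± 0.647 and 11.2 ± 0.871 CPM. In these 3 pairs the group means of the neighbour and of the member differed in opposite directions. Utp14b, which shares its strand with part of Acsl3, was at 5.67 and 14.6 CPM, and Acsl3 at 82.2 ± 4.88 and 113 ± 13.2 CPM, so that both means of this pair were higher with esculetin.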
